A study of Mus musculus with 16 samples.

Results

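Ubiquitin is attached to proteins by ligases, which choose the substrate, in some cases through an adaptor. Described here are 5 ligase and adaptor genes with sites of changed m6A signal in mouse liver: Traf6, Znrf1, Ltn1, Klhl25 and Fbxw4. Their 6 sites were chosen by gene name from the 622 sites under 586 gene names in the deposited table of differential methylation (DM), with the logFC and p values of the table already known. Klhl25 has 2 sites and each of the other genes has 1. The logFC, the p value and what is calculated from them are therefore given as a description without a test, and every comparison between the sites is a description as well.

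The table compares livers of 4 wild type mice (Albumin-Cre with both Mettl14 alleles intact) with livers of 4 mice in which floxed Mettl14, a subunit of the m6A methyltransferase complex, was deleted by the same Cre. All 8 mice carried Albumin-Cre, which acts in hepatocytes, and all were on a 42% high-fat diet for 3 months. Other cells of the liver may keep Mettl14, which was not measured here. Each mouse gave 1 INPUT library (mRNA fragments before the pull-down) and 1 m6A-IP library (fragments pulled down with an antibody against m6A), or 16 libraries. The strain and the age of the mice are not given in the sources used here. The table has 1 value per site over all mice and none per library, so the depth, the levels in each mouse and the expression of liver markers are unknown here, and in bulk liver fewer cells of a type and less RNA per cell cannot be told apart. The reference genotype is not stated either, so a positive logFC is not read as a gain or a loss of m6A in the knockout.

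Most ligases of the RING type hold a ubiquitin-conjugating enzyme next to the substrate. TRAF6 is a RING ligase that builds ubiquitin chains used as signals below the interleukin-1 and Toll-like receptors. ZNRF1 is a RING ligase attached to membranes, and LTN1 (listerin) is a RING ligase of ribosome quality control, which marks unfinished peptides on stalled ribosomes. KLHL25 and FBXW4 do not act alone but bring substrates to cullin ligases. KLHL25 joins CUL3 through its BTB domain and has ATP citrate lyase, an enzyme of lipid synthesis, among its substrates, while FBXW4 joins the CUL1 complex through its F-box. m6A in mRNA is mostly found in the motif RRACH, where R stands for a purine and H for any base but G.

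The sequences of the sites are shown because the sites, each 50 nt long, differ in motif and base composition. They are given with RRACH matches in capitals, on the transcript strand of GRCm38, the assembly that mm10 names. Both coding sites are printed whole. For sites in a 3′UTR, a stretch of 30 of the 50 nt is printed, placed on the motif where there is one and otherwise in the middle of the site.
Traf6, 3′UTR, chr2:101700831-101700860, plus strand: tGAACTtgGGACActctcggtcacaagcgt
Fbxw4, 3′UTR, chr19:45578362-45578391, minus strand: tctgctttgctttgaaacgaaggaaGGACA
Klhl25, 3′UTR, chr7:75873390-75873419, plus strand: GGACAcccacctgccttagtcctgtgtcct
Klhl25, CDS, chr7:75866037-75866086, plus strand: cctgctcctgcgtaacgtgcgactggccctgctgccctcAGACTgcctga
Znrf1, CDS, chr8:111537189-111537238, plus strand: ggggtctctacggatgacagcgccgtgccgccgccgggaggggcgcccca
Ltn1, 3′UTR, chr16:87378408-87378437, minus strand: attcccaccctcatccagaggtttgaagtg

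The 4 positive sites lie in 3 genes (Traf6, Klhl25 and Fbxw4), and the 2 negative sites in Znrf1 and Ltn1. Of all listed sites, 66.4% are positive. The deposited logFC is on the natural log scale, and its standard error (SE) was read back from the p value as that of a Wald test. Traf6 has a logFC of 3.83 (SE 0.600). The SE rests on the normal distribution: read back from a t distribution on 6 degrees of freedom, it would be 0.0449 for Traf6 and 0.295 to 0.484 for the other sites, and all intervals given here change with it. The other positive values are 4.66 (SE 1.12) for the coding site of Klhl25, 3.25 (SE 0.848) for its 3′UTR site and 4.57 (SE 0.997) for Fbxw4. With the normal distribution, all 4 positive sites have overlapping 95% intervals, in 6 of 6 pairs. Whether they differ in size was not tested. Znrf1 has a logFC of -4.47 (SE 1.14), with an interval from -6.70 to -2.23. For Ltn1 the value is -3.75 (SE 0.929), with an interval from -5.57 to -1.93 that overlaps that of Znrf1.

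**Figure D1:**
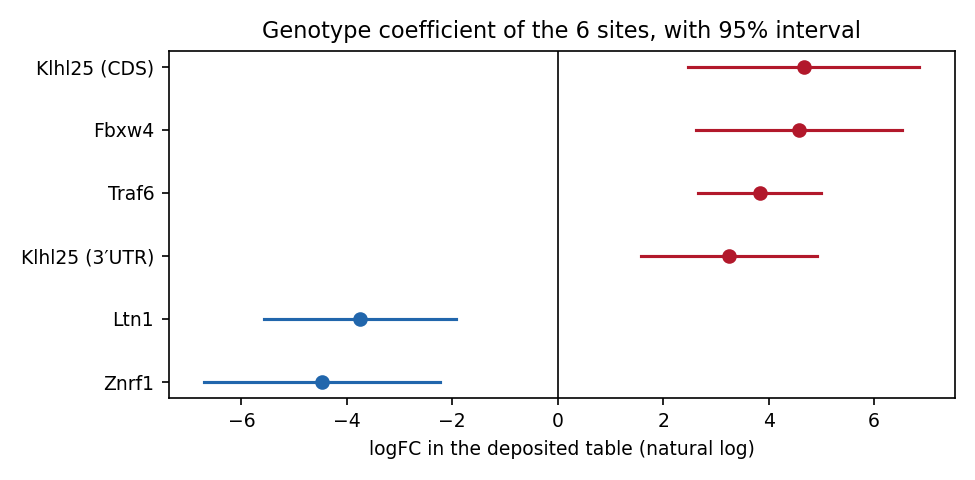
The logFC of each of the 6 sites (points, natural log scale) with its 95% interval read back from the p value (lines); red is positive and blue negative. The 4 positive intervals overlap each other, as do the 2 negative ones. Sites were listed for their small p values, so that no interval could reach 0.

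An absolute logFC over 3 was found for 6 of 6 sites, against 42.8% of all sites in the table, but large values were known when the genes were chosen. Large and positive was common in the table, while large and negative was rare: 10 of its 209 negative sites lie under -3, and Znrf1 and Ltn1 hold ranks 2 and 7 among the negative sites. Among all 622 sites ordered by absolute logFC, the coding site of Klhl25 has rank 8, Fbxw4 13, Znrf1 25, Traf6 92, Ltn1 99 and the 3′UTR site of Klhl25 216. The order by p value is another one, with Traf6 at rank 1, Fbxw4 at 189, Klhl25 at 257 (CDS) and 340 (3′UTR), Ltn1 at 269 and Znrf1 at 309. Of the 6 sites, that with the largest absolute logFC, the coding site of Klhl25, had neither the smallest p value nor the smallest SE. A p value depends on both the logFC and its SE, so its order is not one of precision. The SE of Znrf1 is the 7th largest in the table by rank and that of the coding site of Klhl25 has rank 13, against a median SE of 0.798 among sites with an absolute logFC over 3, while Traf6 lies under that median.

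**Figure D2:**
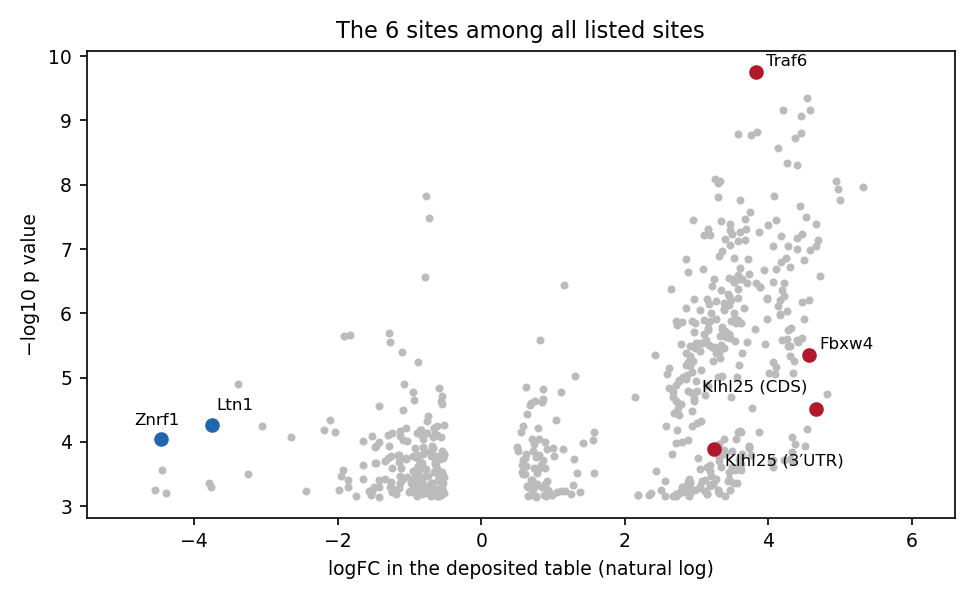
All 622 sites in the deposited table (grey) by logFC (natural log) and −log10 p value, with the 6 ligase and adaptor sites in red (positive) and blue (negative). Traf6 is at the top of the plot, while Znrf1 and Ltn1 lie far left of nearly all negative sites.

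Taken off the log scale, the size of the logFC becomes a ratio of one genotype to the other, which spans 25.7 (95% interval 4.88 to 136) for the 3′UTR site of Klhl25 to 106 (95% interval 11.8 to 949) for its coding site. The ratio is 46 (95% interval 14.2 to 149) for Traf6, 42.5 (95% interval 6.88 to 262) for Ltn1, 87.0 (95% interval 9.29 to 814) for Znrf1 and 97.0 (95% interval 13.7 to 685) for Fbxw4. That of Traf6 has the narrowest interval, and those of Znrf1 and of the coding site of Klhl25 the widest. Sites listed for small p values and chosen with their logFC known can have overstated ratios. The intervals do not allow for this. The 6 ratios share an arithmetic feature: multiplied by 4, the number of mice per genotype, each is a whole number within 0.02, namely 184 for Traf6, 348 for Znrf1, 170 for Ltn1, 424 and 103 for Klhl25 and 388 for Fbxw4. Of the 352 sites in the table with an absolute logFC over 2, 278 (79.0%) have this feature, and of the other 270 sites 10 (3.7%). Of the 74 larger sites without it, 60 gave a whole number when multiplied by a further 3. Sites in other genes have the logFC of a member to within 1e-06: Lad1 has that of Traf6, and Mtmr6 and Rbms3 have that of the coding site of Klhl25. The table gives no level in either genotype, so whether the lower genotype had any IP reads at these sites is unknown here, and the cause of the whole numbers was not tested.

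**Figure D3:**
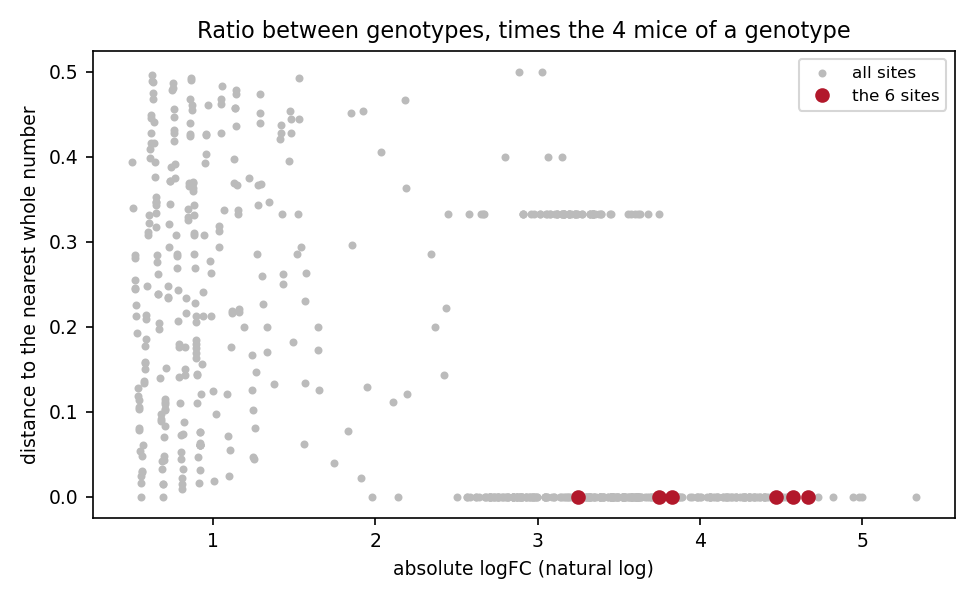
For each site, the distance of the ratio times 4 from the nearest whole number (vertical axis) against the absolute logFC (natural log, horizontal axis). The 6 ligase and adaptor sites (red) lie on the line at 0 with most sites over 2, while smaller sites (grey, left) are spread out.

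By region on the longest annotated coding transcript (GENCODE M21), 4 of the 6 sites were placed in the 3′UTR and 2 in the CDS. In the table as a whole, 36.1% of the 570 sites that could be placed lie in the 3′UTR, 58.2% in the CDS and 5.61% in the 5′UTR. The last exon holds 4 of the 6 sites, against 61.8% of all placed sites. The positive sites comprise 3 in the 3′UTR and 1 in the CDS, and of the negative ones that of Ltn1 is in the 3′UTR and that of Znrf1 in the CDS, so that the sign does not divide by region.

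The site of Traf6 runs from 101700821 to 101700870 on chromosome 2, within exon 8 of 8, an exon of 5007 nt. Its midpoint lies 3347 nt after the stop codon and 823 nt before the end of the transcript, which gives it rank 4 among the 206 3′UTR sites in the table by distance from the stop codon. The 3′UTR of Traf6 is 4170 nt long against a coding sequence of 1590 nt. This gene has 1 coding transcript in GENCODE M21, which holds the site.

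The site of Fbxw4 runs from 45578357 to 45578406 on chromosome 19, in exon 9 of 9, 424 nt after the stop codon and 128 nt before the end of the transcript. It is in 2 of the 8 coding transcripts annotated for the gene, or 25%, but in 80% of its coding transcripts in RefSeq. All 50 bases also lie in an exon of a noncoding transcript of Gm17018, annotated on the opposite strand. Whether strand was used in counting is not given in the sources used here, and without it reads from Fbxw4 and from that transcript cannot be told apart.

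Klhl25 is the only member with sites in different regions, and both are positive. Its coding site runs from 75866037 to 75866086 on chromosome 7 in exon 2 of 3, 714 nt after the start of the CDS. The other, from 75873384 to 75873433, lies in exon 3, 736 nt after the stop codon and 1791 nt from the first. The stop codon of Klhl25 is 24 nt before the end of exon 2, so that exon 3 is 3′UTR throughout. Of 5 coding transcripts, 3 hold the coding site and 2 the 3′UTR site. The sites share 1 gene-wise INPUT size factor and the same mice, and are not independent.

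Znrf1 has the site nearest to a start codon: it runs from 111537189 to 111537238 on chromosome 8 in exon 1, with its midpoint 73 nt after the start of the CDS. The first 100 coding bases hold 33 sites of the table, of which 9 are negative, beside 209 negative of all 622 sites. The site of Znrf1 is in the CDS of 5 of the 11 coding transcripts, or 45.5%, and not in the other 6. The site of Ltn1, from 87378398 to 87378447 on chromosome 16, lies in exon 30 of 30, 522 nt after the stop codon, in 1 of 2 coding transcripts. In the table, 53 of the 206 3′UTR sites are negative and 2 of these lie under -3, Ltn1 among them. For each of the 6 sites, the region was the same in every coding transcript that holds it. At 50 nt per bin, the 5 transcripts comprise 42 to 155 bins, of which the table lists 2 for Klhl25 and 1 for each other gene. The authors removed bins with few IP reads before testing, so how many of these bins were tested is unknown here.

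**Figure D4:**
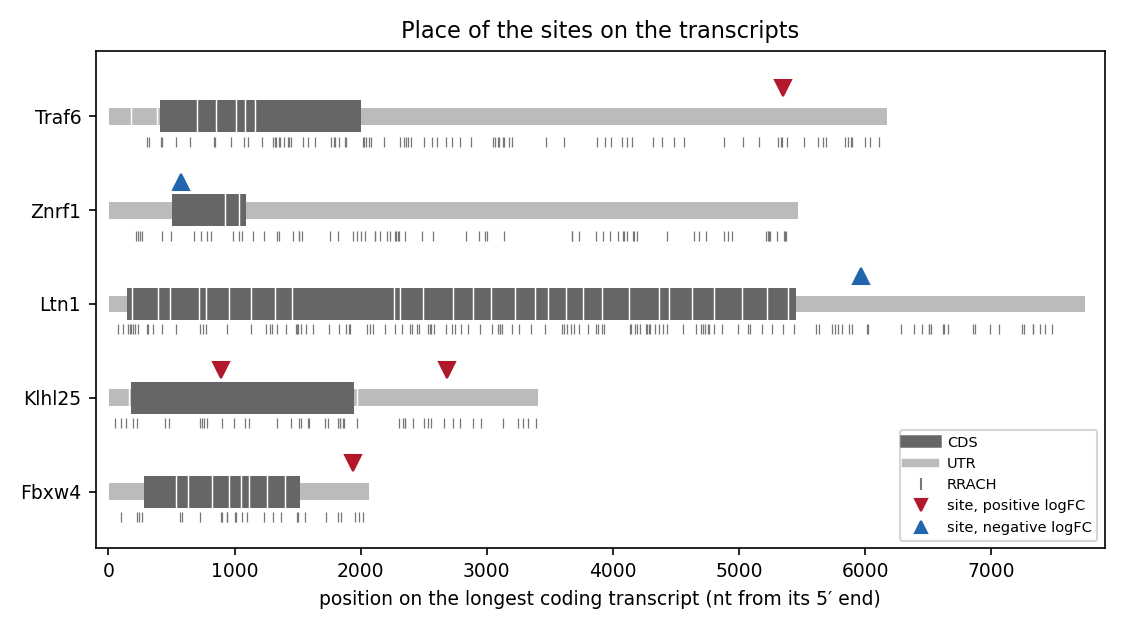
The longest coding transcript of each gene, in nt from its 5′ end, with CDS (dark), UTR (light), exon borders (white lines), RRACH matches (ticks) and the sites (red triangles down for positive, blue triangles up for negative logFC). Traf6 has its site far into a long 3′UTR and Znrf1 just after the start codon.

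RRACH was found in 4 of the 6 sites, against 60.8% of all sites in the table and 50.3% of all windows of 50 nt in the longest coding transcripts of 21870 genes. It was searched on the transcript strand, with overlapping matches counted. The 4 positive sites hold 5 matches, and the 2 negative sites hold 0. Over all 622 sites the order is the other way, with RRACH in 69.9% of negative sites and in 56.2% of positive ones. Among the sites of other ligases and adaptors, 7 of 8 negative and 7 of 14 positive sites hold it. GGACA stands in 3 of the positive sites, those of Traf6, Fbxw4 and the 3′UTR of Klhl25, and these are also the 3 sites with GGAC, a core found in 26.4% of all sites and 17.2% of all windows. Traf6 is the member with 2 matches, GAACT and GGACA, and its A of GGACA lies 5 nt from the midpoint of the site. In the other positive sites, the A of the nearest match lies 16 to 18 nt from the midpoint. It lies 43 nt away for Ltn1 and 75 nt away for Znrf1, outside of both sites. No match says only that these letters are not in the window. The site of Znrf1 holds TGACA, which matches the wider DRACH, where D is any base but C, a motif, found in 62.5% of all windows. The transcripts themselves are not short of the motif: Ltn1 has 17.2 RRACH matches per kb, the most of the 5, and the other genes have 13.1 to 13.9.

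The sites also differed in GC content. It is 78% for Znrf1, 66% for the coding site of Klhl25, 54% for its 3′UTR site, 50% for Traf6, 46% for Fbxw4 and 44% for Ltn1. The median over all sites in the table is 52% (quartiles 44% and 60%), the same as that of the 6 sites. Both extremes of the group are thus negative sites. Znrf1 ranks near the top of the whole table by GC content (rank 7.5 of 622), and 0.803% of all windows of 50 nt in coding transcripts have more GC. Within its own transcript, 2.79% of windows exceed it. Fbxw4 is the opposite case: its transcript has 60.1% GC, and 94.8% of its windows have more GC than the site. For Ltn1, 44% is close to its transcript at 42.6%, and for Traf6 50% stands beside 45.7%. Soft-masked repeat sequence in the RefSeq assembly covers 13 bases of the coding site of Klhl25 and 0 of the other sites, while 19.9% of all sites have any. With a limit of 95% for both identity and coverage, 0 of the 6 sites matched elsewhere in the genome, against 11.4% of all sites.

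**Figure D5:**
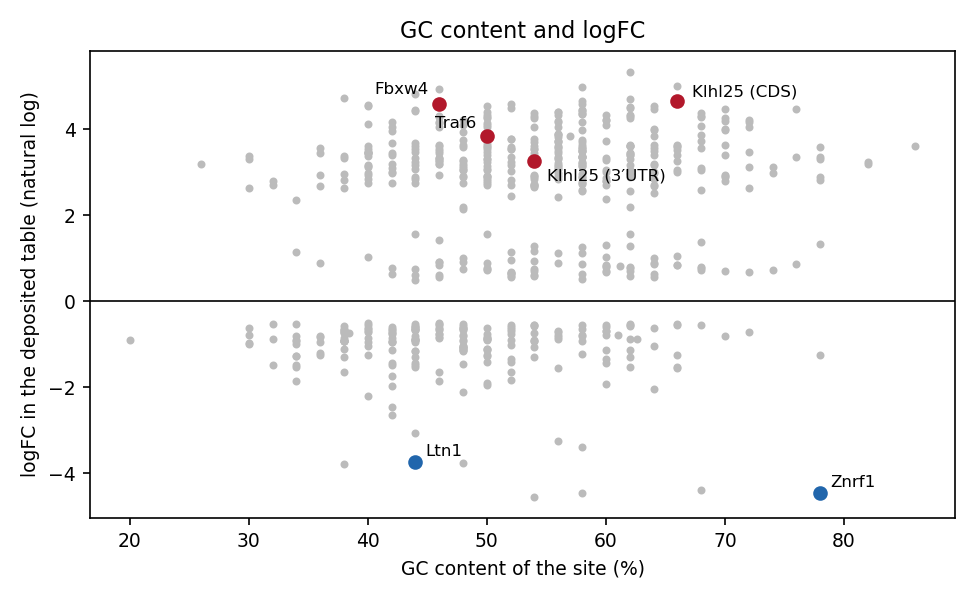
GC content of each site (%) against its logFC (natural log) for all 622 sites (grey) and the 6 ligase and adaptor sites (red positive, blue negative). Znrf1 stands at the right, at 78% GC with a logFC of -4.47, and Ltn1 at 44% in the left part of the plot.

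Other genes of the ubiquitin system were counted by symbol family. Ligases and adaptors with other symbols are not in the lists, such as Rmnd5a (logFC -1.85, in the 3′UTR) and Appbp2 (3.33, in the CDS). The counts and signs below are those of the listed genes and are not complete. Of 552 ligases and adaptors, 26 (4.71%) have a site, with 18 positive and 10 negative sites (64.3% positive, near the 66.4% of the table). Without the 5 members this is 21 of 547, or 3.84%, against 2.61% of all protein-coding genes, which include genes not expressed in liver. The members had been picked with their large values known, and among the sites of the other genes 8 of 22 (36.4%) have an absolute logFC over 3, against 42.4% of the sites of all coding genes, and the median of the absolute logFC is 2.72, close to 2.78 over all coding genes. RING and related ligases have a site in 10 of 273 genes (3.66%), with Traf6, Znrf1 and Ltn1 among them. Cullins and their adaptors have one in 13 of 255 (5.10%), with Klhl25 and Fbxw4 among them. These members were known to have sites before the genes were counted, and both shares include them. HECT ligases, which carry the ubiquitin on themselves before passing it on, have a site in 3 of 26 genes (11.5%).

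Among the other listed RING and related ligases, the deposited logFC is positive for Rnf185 (4.44), Ube4b (4.26), Rnf168 (2.76), Siah2 (1.04) and Bfar (0.78). It is negative for Trim34b (-1.65) and Topors (-1.12). RNF168 marks histones at DNA breaks, and RNF185 and UBE4B act in protein quality control. Both negative values are smaller in size than those of Znrf1 and Ltn1. In the cullin group, the smallest p values besides Fbxw4 are those of Kbtbd7 (4.17 in the 5′UTR), Spsb2 (2.88), Asb7 (3.16) and Kctd3 (-0.88). Kbtbd7 also has a negative site in the CDS (-0.77), so that, unlike Klhl25, it has both signs. Cul1, the scaffold that FBXW4 joins, has a site with a logFC of -1.09 (SE 0.263), named here after its value was seen. The HECT ligases Herc2 (3.56, SE 1.01), Ube3a (3.16, SE 0.662) and Ube3b (2.88, SE 0.816) are positive, as are 66.4% of all sites in the table.

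The genes of TRAF6 signalling were listed because of Traf6, which was chosen for its site and is counted in their share. Of 70 genes of TRAF6 signalling, 4 (5.71%) have a site, Traf6 included, against 2.61% of all coding genes. Besides Traf6 these are Il1r1, the interleukin-1 receptor, with a logFC of -1.25 (SE 0.314), Tab2, an adaptor of the kinase that TRAF6 chains recruit, with -3.80 (SE 1.08), and Rela, a subunit of NF-κB, with 3.75 (SE 0.673). The signs are divided, with 2 positive and 2 negative sites, where 66.4% of all sites are positive. The positive sites of Traf6 and Rela are in the 3′UTR and the negative sites of Il1r1 and Tab2 in the CDS, and each of the 4 holds an RRACH match. Of 23 genes of ribosome quality control, 1 (4.35%) has a site, against 2.61% of all coding genes, and it is Ltn1, which was chosen for its site.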

How the data were processed

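Per the submitters' processing notes and the paper's methods, the authors mapped reads to mm10 with HISAT2 (version not given in the sources used here), counted them in 50-nt bins of concatenated exons, scaled IP counts and divided them by a gene-wise INPUT factor, tested each bin with RADAR and merged adjacent significant bins. The deposited logFC values are natural log coefficients of genotype, made by the authors from 4 mice each. The deposited p-values are from the authors' Wald tests. These columns are the authors' own comparison; nothing else was measured per site, and 0 columns hold values of a single sample. Sample labels gave the groups.

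Here the SE was calculated as the absolute logFC over the normal quantile of the two-sided p value, which assumes an unadjusted Wald test, and the 95% interval from it. Sequences were read from GRCm38 (samtools 1.23.1, RefSeq assembly), positions from GENCODE M21 (longest coding transcript; all members matched by symbol), and other matches with BLAST+ 2.17.0 (word size 16). The code for the SE and for the motif search was checked on simulated data with known SEs and planted motifs. The simulated p values came from the same normal Wald test. The check therefore covers the arithmetic and cannot cover the assumed distribution or an adjustment of the p values. Python 3.11.15, pandas 2.3.3 and SciPy 1.17.1 were used. The members and gene lists were chosen with earlier results of these data known. Every listed gene with a site was named where a list had 10 or fewer, otherwise the 5 with the smallest p value.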

Additional observations from a re-analysis of the deposited data

How the results depend on the processing

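No mouse could be left out, since values were listed over all mice, and the depth and the precision it gives are unknown. No paired analysis was possible because the table has no column for a single mouse. The count of member sites with a motif, 4 for RRACH, was 5 for DRACH, 3 for GGAC and 5 for RRACH with 50 nt added on each side, where Ltn1 gained matches and Znrf1 did not. The share of ubiquitin genes with a site, 4.71%, was 4.45% with E1, E2 and deubiquitinase genes added. GC content with the added bases was 35.3% to 76.7%. The SE depends on the assumed distribution: with a t distribution on 6 degrees of freedom it would be 0.0449 for Traf6 and 0.295 to 0.484 for the other sites. The share of transcripts with a site depends on the annotation. In RefSeq coding transcripts, an alternative chosen after seeing the data, it was 70% for Znrf1, 100% (CDS) and 75% (3′UTR) for Klhl25, 80% for Fbxw4 and 100% for Ltn1 and Traf6, and of all GENCODE transcripts of Traf6 33.3% hold its site. GC ranks and ranks by absolute logFC with 1 site per gene stayed within 1.5 times those given, and 0 other genome matches were found for the members at 90% identity over 80%.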

Other observations

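Deubiquitinases, which take ubiquitin off again, have a site in 4 of 93 genes (4.30%), against 2.61% of all coding genes. Of their 5 sites 2 are positive, while 66.4% of all sites are. The deposited logFC is positive for Josd1 (3.61, in a 5′UTR site of 86% GC) and Usp48 (3.21, in the 3′UTR). It is negative for Usp16 (-0.55) and for both sites of Vcpip1 (-0.96 and -0.81), and these 3 sites are in the CDS. Of 52 genes of E1 and E2 enzymes and ubiquitin, 1 (1.92%) has a site, which is no more than the 2.61% of all coding genes. It is Ube2d3, a conjugating enzyme used by many RING ligases, with a logFC of -0.81 (SE 0.212) in the 3′UTR.

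The most negative logFC in the table belongs to Il1b, the ligand of the receptor encoded by Il1r1, at -4.54 (SE 1.32) in the CDS. It was named after its value was seen and is in none of the lists. Znrf1 follows at -4.47.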
